A study of Homo sapiens with 6 samples.

Results

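The 10 transcription factors and cofactors that direct erythroid and early blood cell identity were followed through EZH2 inhibition: *GATA1*, *GATA2*, *TAL1*, *LMO2*, *LDB1*, *KLF1*, *NFE2*, *GFI1B*, *ZFPM1* and *MYB*. They were chosen by name, as known factors of the lineage but with earlier results of these data known, and each symbol matched 1 Ensembl gene, giving 10 of the 60671 gene rows in each count file. The cells were K562, a human chronic myeloid leukemia line with erythroid character, here as 1 clone (Flag-NLS-M.CviPI-Lamin-B1) that carries a doxycycline-inducible fusion of a GpC methyltransferase to Lamin B1. In the DMSO group, 3 cultures received 0.1% DMSO for 72 h. In the EZH2i group, 3 cultures received 1 µM GSK343, an inhibitor of the histone H3 lysine 27 methyltransferase EZH2, over the same time. Both groups were given 1 µg/mL doxycycline during the last 24 h, so the fusion was induced in controls and treated cells alike. RNA was measured by sequencing from the 3′ end of polyadenylated transcripts.

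GATA1 is the central activator of erythroid genes, and GATA2 precedes it in progenitors, where it often occupies the same sites. TAL1 binds DNA next to GATA factors in a complex in which LMO2 bridges the DNA-bound proteins and LDB1, through self-association, connects distant sites. KLF1 and NFE2 act with this complex at globin loci, whereas ZFPM1 (FOG1), which binds GATA1 and GATA2 rather than DNA, and GFI1B recruit corepressors. MYB maintains proliferating progenitors and declines as red cells mature.

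Of these 10 genes, only *ZFPM1* passed the test, and it was higher after EZH2i, by 1.02 ± 0.18 on the log2 scale (SE, n = 3 libraries per group), a 2.03-fold rise. None was called lower. *GATA1* and *LDB1* had all EZH2i libraries above all DMSO libraries but missed the adjusted threshold. In the other 7 the groups overlapped. All 10 genes passed the filter on low counts and entered the fit over 12364 genes (edgeR's quasi-likelihood test, Benjamini-Hochberg adjusted p under 0.05).

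Against the background of all tested genes, 1 of 10 called higher compares with 3.34% called higher, and 0 of 10 called lower with 0.922% called lower. Complete separation of the groups with EZH2i above DMSO was seen for 3 of 10 factors and for 13.3% of all tested genes. An unadjusted p under 0.05 was reached by 3 of 10 factors, all of them higher, and by 19.1% of all tested genes. The median log2 fold change of the 10 factors was 0.108, with 7 above 0, and that over all tested genes was -0.0002, with 6178 above 0 and 6186 below.

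The 6 libraries held 6327544 to 8987768 reads on genes, so that 1 read was worth between 0.113 and 0.156 CPM, the unit of levels here (reads scaled by library size and edgeR's TMM factors). EZH2i replicate 1 stood apart from the other EZH2i libraries on the second principal component, which held 18.4% of the variance. In EZH2i replicate 3, 12.7% of the listed reads fell on no gene and 63.6% on genes, against 7.43 to 8.51% and 67.0 to 67.9% in the other 5 libraries. The K562 label was checked on 10 erythroid markers, of which 9 were tested. Their summed level was 1630 to 1770 CPM in DMSO and 1850 to 1910 CPM in EZH2i, with *HBG2* and *HBZ* called higher. Markers of other cell types were mostly absent: 4 of 5 T cell, 2 of 4 B cell, 4 of 5 monocyte and granulocyte, 3 of 4 fibroblast and 2 of 3 epithelial markers had at most 10 reads in every library. One gene of each of 3 of these lists was called higher, *CD3D* (log2 fold change 0.46), *LYZ* (0.62) and *COL1A1* (1.91), which moved in the direction of *ZFPM1*. Summed levels went from 58.6–71.0 to 83.7–101 CPM for the T cell list, from 11.1–16.6 to 20.3–23.3 CPM for the monocyte and granulocyte list and from 1.41–2.84 to 5.69–9.02 CPM for the fibroblast list. The B cell list went from 3.80–4.77 to 5.30–6.30 CPM and the epithelial list from 72.7–83.5 to 61.3–66.7 CPM, with no gene called. The part of these markers in the results was not tested. In bulk RNA, fewer cells of a kind and less RNA per cell cannot be told apart.

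*ZFPM1* (ENSG00000179588, GRCh38 chr16:88453280-88537031, plus strand) was counted at 9.54, 6.41 and 8.51 CPM in DMSO replicates 1, 2 and 3 and at 16.8, 16.9 and 15.8 CPM in EZH2i replicates 1, 2 and 3. These levels rest on 61, 54 and 75 reads and on 124, 134 and 110 reads. The lowest EZH2i library was 1.65 times the highest DMSO library, so the groups were clearly apart, and the DMSO libraries varied more among themselves than the EZH2i libraries. The means were 8.15 ± 1.59 and 16.5 ± 0.632 CPM (SD, n = 3 each). The log2 fold change of 1.02 had a 95% interval from 0.64 to 1.41, a fold between 1.55 and 2.66, and an adjusted p of 0.00407 (edgeR). It was called in every one of the 12 alternative fits, with adjusted p between 5.34e-05 and 0.0337. Without EZH2i replicate 1 the log2 fold change was 1.01 and without EZH2i replicate 3 it was 1.06.

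The start of *ZFPM1* lies in a window rich in G and C. RefSeq promoters (GRCh38.p14, 250 bases before to 50 bases after a listed start) were at hand for 8 of the 10 genes, all but *LMO2* and *NFE2*. Only the first window listed for each gene was used, and other starts were not examined. The windows of *LDB1* (chr10:102114953-102115252) and *GFI1B* (chr9:132945281-132945580) lie inside the gene coordinates given below. The *ZFPM1* window had a GC content of 83.0% and 47 CpG dinucleotides, more than 97.6% of the 27305 promoters in the table, whose medians were 58.3% and 14. It is printed with the windows of *GATA1*, the partner of its protein, and *KLF1*, an erythroid activator with a window of unlike base composition, 5′ to 3′ on the strand of the gene. Capitals mark matches, on either strand, to the GATA motif (GATAA or GATAG preceded by A or T) or to a KLF-type motif (CCNCNCCC), whose matches can overlap each other and also take in GC boxes.
ZFPM1 (chr16:88453030-88453329, plus strand): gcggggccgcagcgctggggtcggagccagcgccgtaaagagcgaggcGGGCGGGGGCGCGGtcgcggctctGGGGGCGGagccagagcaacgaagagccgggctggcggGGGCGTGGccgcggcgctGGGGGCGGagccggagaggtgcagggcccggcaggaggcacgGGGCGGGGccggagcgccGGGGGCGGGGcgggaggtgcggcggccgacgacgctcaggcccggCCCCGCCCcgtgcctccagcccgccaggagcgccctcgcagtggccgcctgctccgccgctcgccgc
GATA1 (chrX:48786340-48786639, plus strand): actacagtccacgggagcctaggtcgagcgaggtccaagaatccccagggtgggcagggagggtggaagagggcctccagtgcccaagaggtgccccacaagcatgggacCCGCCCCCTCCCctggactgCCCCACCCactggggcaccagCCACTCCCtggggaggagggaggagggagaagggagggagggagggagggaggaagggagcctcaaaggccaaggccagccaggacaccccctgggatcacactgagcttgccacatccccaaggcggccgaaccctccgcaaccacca
KLF1 (chr19:12887152-12887451, minus strand): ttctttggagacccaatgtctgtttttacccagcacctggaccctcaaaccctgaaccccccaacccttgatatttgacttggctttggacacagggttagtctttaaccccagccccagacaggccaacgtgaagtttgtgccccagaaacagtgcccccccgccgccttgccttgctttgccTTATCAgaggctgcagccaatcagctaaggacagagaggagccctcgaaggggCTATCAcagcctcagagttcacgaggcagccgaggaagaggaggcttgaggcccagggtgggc

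The *ZFPM1* window held 9 KLF-type matches and no GATA match, the *GATA1* window 4 and none, and the *KLF1* window no KLF-type match and 2 GATA matches. Among the 8 windows, 6 held a KLF-type match, against 55.1% of all promoters, and 3 held a GATA match (*TAL1*, *KLF1* and *GFI1B*), against 25.5% of all. An E-box of the TAL1 type (CAGATG or CAGCTG) was found in the *GFI1B* window alone of the 8, against 29.7% of all promoters. CpG counts in the other windows were 35 in *MYB*, 30 in *TAL1*, 29 in *GATA2*, 13 in *LDB1*, 7 in *GATA1* and 6 each in *KLF1* and *GFI1B*. A match describes letters only, and no binding was measured here.

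Levels of the 10 factors spanned a wide range in DMSO cells. Reads from the 3′ end are not divided by transcript length, since each transcript gives a read near its end whatever its length, but genes can still differ in how well that end is captured. In CPM, *MYB* was highest at 269 ± 37.4 (SD, n = 3), followed by *TAL1* at 108 ± 4.78. *GATA2*, *GATA1*, *NFE2* and *KLF1* came next, between 87.6 and 73.9 CPM, and no neighbours among these 4 were separated by their libraries. *GFI1B* followed at 54.8 ± 11.2, apart from *KLF1*, and then *LMO2* at 15.4 ± 1.42, *LDB1* at 10.7 ± 1.04 and *ZFPM1*, the lowest, each apart from its neighbour. In EZH2i cells *ZFPM1* was 8th, and it overlapped with *LDB1*, as *LDB1* did with *LMO2*. By mean level, *MYB* stood above 95.3% of tested genes and *ZFPM1* above 34.4%. The summed level of all 10 was 785 ± 65.0 CPM in DMSO and 840 ± 35.7 CPM in EZH2i, of which *MYB* made up 31.3 to 35.9% in the 6 libraries.

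**Figure D1:**
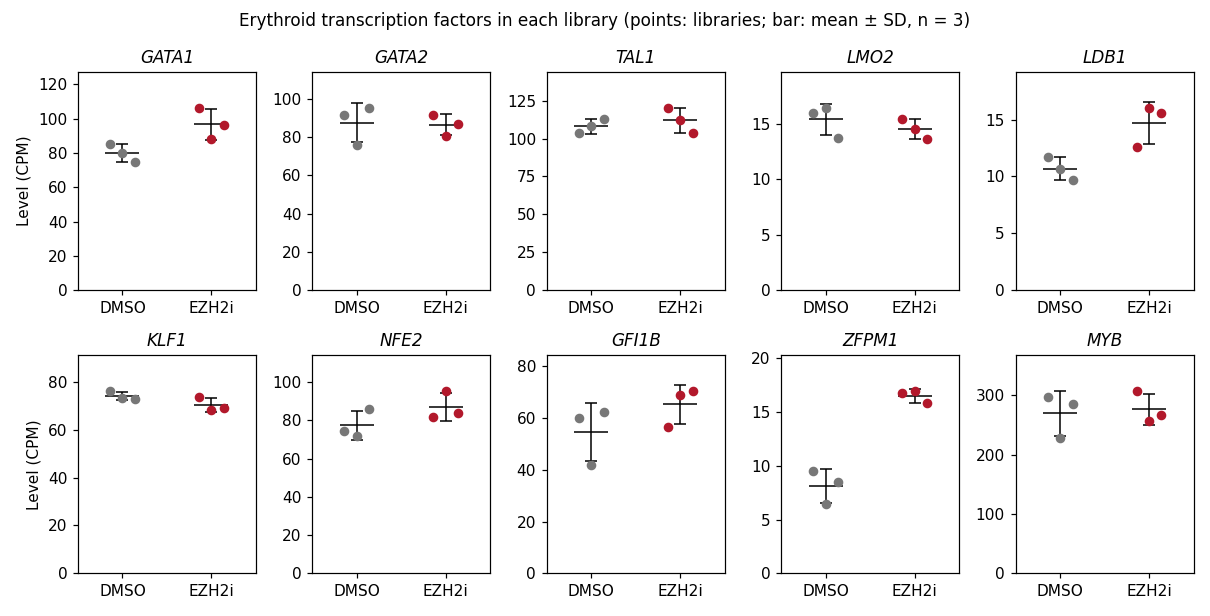
Level in CPM, on a linear axis from 0 with its own scale for each of the 10 factors, in the 3 DMSO (grey) and 3 EZH2i (red) libraries, with bars at the mean ± SD of each group. The groups stand apart for *ZFPM1*, from 6.41–9.54 to 15.8–16.9 CPM, and by less for *GATA1* and *LDB1*, while the remaining 7 overlap.

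The GATA factors were followed first among the activators. *GATA1* (ENSG00000102145, chrX:48786540-48794311) was at 85.1, 79.8 and 74.8 CPM in DMSO and at 106, 87.8 and 96.5 CPM in EZH2i. All EZH2i libraries lay above all DMSO libraries, by a small margin between 87.8 and 85.1 CPM. The log2 fold change was 0.28 (95% interval 0.05 to 0.51, adjusted p = 0.164, edgeR), which did not pass the threshold, and no alternative fit called it. *GATA2* (ENSG00000179348, chr3:128479427-128493201) was at 91.6, 76.0 and 95.1 CPM in DMSO and at 91.7, 80.7 and 87.1 CPM in EZH2i. The 2 groups overlapped, and the interval of the log2 fold change, -0.25 to 0.22 around -0.02, leaves out a change of 1 in either direction.

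For the complex built on TAL1, the DNA-binding subunit and the bridging subunit overlapped between groups, whereas the self-associating subunit LDB1 did not. *TAL1* (ENSG00000162367, chr1:47216290-47232225) was at 104, 108 and 113 CPM in DMSO and 120, 112 and 104 CPM in EZH2i, with a log2 fold change of 0.05 (95% interval -0.17 to 0.27). *LMO2* (ENSG00000135363, chr11:33858576-33892076) was at 16.0, 16.4 and 13.7 CPM in DMSO and 15.4, 14.5 and 13.6 CPM in EZH2i, with a log2 fold change of -0.08 (95% interval -0.41 to 0.26). That value stayed below 0 with any 1 library left out, from -0.16 without DMSO replicate 3 to -0.02 without DMSO replicate 2, and was -0.03 without EZH2i replicate 3 and -0.12 without EZH2i replicate 1. *LDB1* (ENSG00000198728, chr10:102106489-102120368) was at 11.7, 10.7 and 9.65 CPM in DMSO and at 12.6, 16.0 and 15.6 CPM in EZH2i. Every EZH2i library of *LDB1* was above every DMSO library, EZH2i replicate 1 by the least, and the counts behind them were low, 75 to 127 reads. Its log2 fold change of 0.47 (SE 0.18, 95% interval 0.10 to 0.84) had an adjusted p of 0.144 (edgeR) and was not called, nor was it in any of the 12 alternatives, where the adjusted p lay between 0.0737 and 0.346.

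The activators of globin and late erythroid genes were not called. *KLF1* (ENSG00000105610, chr19:12884422-12887201), the factor that switches on adult beta-globin, was at 75.9, 73.1 and 72.9 CPM in DMSO and 73.8, 68.0 and 69.2 CPM in EZH2i. Its DMSO libraries were the tightest of the 10 factors, with a coefficient of variation of 2.24%, and its log2 fold change was -0.07 (95% interval -0.29 to 0.14). *NFE2* (ENSG00000123405, chr12:54292111-54301015), the erythroid partner of small MAF proteins, was at 74.6, 71.6 and 86.0 CPM in DMSO and 81.8, 95.1 and 84.1 CPM in EZH2i. DMSO replicate 3 reached into the EZH2i range, and the log2 fold change was 0.17 (95% interval -0.07 to 0.40). Leaving out DMSO replicate 3 raised it to 0.25, and leaving out EZH2i replicate 2 lowered it to 0.10.

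*GFI1B* (ENSG00000165702, chr9:132944000-132991687), a zinc-finger repressor that works through CoREST, was at 60.1, 41.9 and 62.4 CPM in DMSO and 56.6, 69.0 and 70.3 CPM in EZH2i. DMSO replicate 2 was low and EZH2i replicate 1 fell inside the DMSO range. The log2 fold change was 0.26 (95% interval -0.05 to 0.56, adjusted p = 0.346, edgeR), and 0.09 without DMSO replicate 2. *MYB* (ENSG00000118513, chr6:135181308-135219173) was at 297, 227 and 285 CPM in DMSO and 306, 256 and 267 CPM in EZH2i. The groups overlapped, with a log2 fold change of 0.04 (95% interval -0.21 to 0.28).

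**Figure D2:**
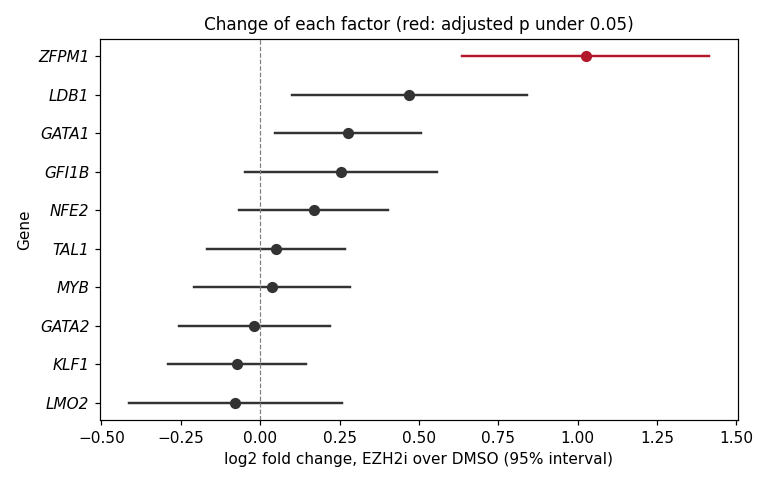
The log2 fold change of each factor, EZH2i over DMSO, with its 95% interval from edgeR's quasi-likelihood fit (n = 3 libraries per group). *ZFPM1* is the one factor called, at 1.02, and the intervals of *GATA1* and *LDB1* lie above 0 without passing the adjusted threshold.

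Since these proteins act in complexes, ratios of their reads were taken within each library, where the scaling between libraries cancels. The ratios are descriptions without a test, and 12 were computed. *ZFPM1* to *GATA1* was 0.112, 0.0804 and 0.114 in DMSO and 0.159, 0.193 and 0.163 in EZH2i. *ZFPM1* to its paralog *ZFPM2* was steadier within groups, at 0.313, 0.327 and 0.316 in DMSO and 0.525, 0.519 and 0.509 in EZH2i. Both sets were apart, so *ZFPM1* mRNA was higher against that of its partner and that of the other FOG gene. Protein was not measured. *GATA1* to *GATA2* was 0.928, 1.05 and 0.786 in DMSO and 1.16, 1.09 and 1.11 in EZH2i. *KLF1* to *GATA1*, with *GATA1* now the denominator, was 0.892, 0.917 and 0.974 in DMSO and 0.697, 0.774 and 0.717 in EZH2i. *KLF1* itself overlapped between groups. *LDB1* to *LMO2* was 0.735, 0.652 and 0.702 in DMSO and 0.816, 1.10 and 1.15 in EZH2i. In all, 5 ratios were higher in every EZH2i library and 2 were lower in every EZH2i library (*KLF1* to *GATA1* and *TAL1* to *LYL1*). The other 5 overlapped, among them *TAL1* to *GATA1* and *MYB* to *GATA1*. The ratios share genes and are not separate results. Those higher were *ZFPM1* to *GATA1*, *GATA2* and *ZFPM2*, *GATA1* to *GATA2* and *LDB1* to *LMO2*. Their numerators *ZFPM1*, *GATA1* and *LDB1* were already apart as single genes. The share of gene pairs in general that stand apart was not computed.

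**Figure D3:**
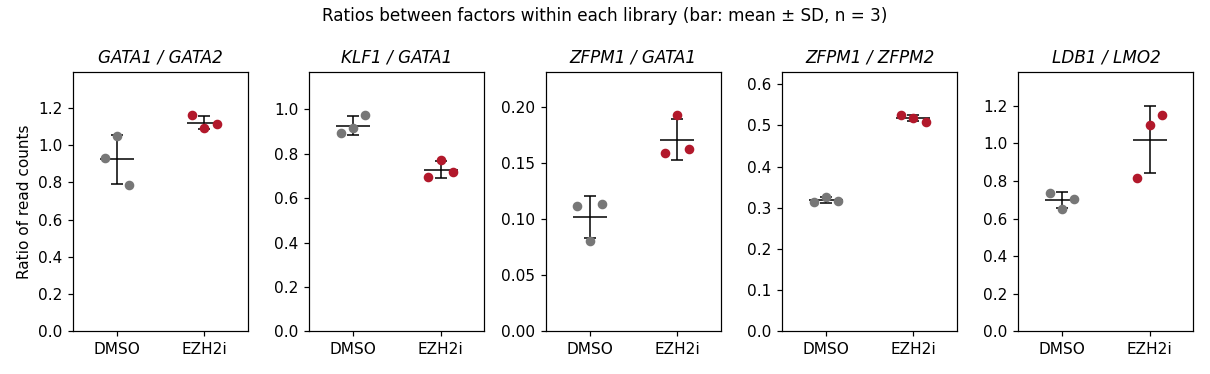
Ratios of read counts between pairs of factors in each library, with the mean and SD of each group (n = 3). The *ZFPM1* to *ZFPM2* ratio is 0.319 ± 0.00752 in DMSO and 0.518 ± 0.00817 in EZH2i, and *KLF1* to *GATA1* is the one pair of the 5 plotted that is lower in EZH2i, from 0.927 ± 0.0424 to 0.729 ± 0.0403.

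The surroundings of the 10 genes were read from GENCODE. Within 100000 bp of them lie 103 other genes, of which 42 were tested and 1 was called, a share near that over all tested genes (3.34% higher and 0.922% lower): *ZNF385A*, 68118 bp from *NFE2*, was higher by 0.65 on the log2 scale (adjusted p = 0.0211, edgeR). *ZC3H18*, the one tested neighbour of *ZFPM1*, lay at 33372 bp and differed by 0.004 on the log2 scale (adjusted p = 0.989). Exons of *GATA2*, *TAL1*, *GFI1B* and *MYB* overlap genes on the opposite strand, none of them within 9507 bp of the 3′ end that these libraries read, and the other 6 have no such overlap. Whether the counting used strand is not given in the sources used here.

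The genes whose levels ran most like *GATA1* over the 6 libraries, by Pearson's r of log2 CPM, were *BCL9L* (r = 0.996), *TIGD2* (0.993) and *VWA5A* (0.993), none of which was called. Those most like *ZFPM1* were *MGAT5* (0.998), *NEDD4L* (0.998) and *MEF2C* (0.993), of which *MGAT5* (log2 fold change 0.53) and *NEDD4L* (1.96) were called higher. An r above 0.95 was reached by 62 of the 12364 tested genes for *GATA1* and by 125 for *ZFPM1*.

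Proteins that work with the factors were then grouped by role, and the counts called in each list stand against the same 3.34% higher and 0.922% lower over all tested genes. Of 17 partners of the TAL1-LMO2-LDB1 complex, 14 were tested, and *RUNX1T1* (ETO), a corepressor of the family that joins this complex, was the one called. It was at 15.3, 14.6 and 15.0 CPM in DMSO and 25.2, 27.7 and 30.9 CPM in EZH2i, well apart, which is a rise of 0.90 on the log2 scale (SE 0.14, adjusted p = 0.00168, edgeR), and it was called in all 12 alternative fits. Other genes of the ETO family were not called. *CBFA2T3*, the more abundant at 50.4 ± 3.67 CPM in DMSO and 51.9 ± 8.88 CPM in EZH2i, differed by 0.045 on the log2 scale (adjusted p = 0.895, edgeR). *CBFA2T2* differed by 0.33 (adjusted p = 0.297, edgeR). The median of the 14 was 0.193, with 11 above 0. The most abundant uncalled partners were *LYL1*, a bHLH paralog of TAL1 (229 ± 14.5 to 267 ± 38.0 CPM, log2 fold change 0.22, 95% interval -0.02 to 0.46), and *SSBP3*, which stabilises LDB1 (log2 fold change 0.23, adjusted p = 0.224).

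None of the 21 CoREST, NuRD and CtBP subunits recruited by GFI1B and ZFPM1 was called by edgeR or by any alternative tool, and 2 had an unadjusted p under 0.05, against 19.1% of all tested genes. Their median was -0.048, with 9 above 0 and 12 below, and it moved to -0.008 without DMSO replicate 1, -0.014 without EZH2i replicate 1, -0.079 without EZH2i replicate 2 and -0.03 without EZH2i replicate 3. *HDAC2* had a log2 fold change of 0.03 (95% interval -0.18 to 0.23) and *RBBP4* of 0.15 (95% interval -0.10 to 0.41). Of the 8 NFE2 partners and site rivals, *BACH1*, a heme-sensing repressor, rose from 41.5 ± 2.71 to 56.0 ± 1.81 CPM (log2 fold change 0.44, adjusted p = 0.0365, edgeR), a call made in 4 of 12 alternatives and, of those that left out 1 library, only without EZH2i replicate 1, where *BACH2* was called higher too (0.41, adjusted p = 0.0206). The small MAF gene *MAFG* differed by -0.31 on the log2 scale (adjusted p = 0.224) and *NFE2L2*, the NRF2 gene, by -0.08 (adjusted p = 0.752).

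Of 31 paralogs of the factors, 20 were tested and *KLF13* was the one called, at 2.82, 3.56 and 4.20 CPM in DMSO and 6.23, 10.8 and 7.59 CPM in EZH2i (log2 fold change 1.21, SE 0.27, adjusted p = 0.0175, edgeR). The groups were apart at low levels, and the call was made in 9 of 12 alternatives, not without DMSO replicate 1, DMSO replicate 2 or EZH2i replicate 2. *KLF3*, a repressor among the KLF genes, differed by 0.19 on the log2 scale (adjusted p = 0.364). *ZFPM2*, the second FOG gene, was at 30.5, 19.6 and 26.9 CPM in DMSO and 32.0, 32.5 and 30.9 CPM in EZH2i, apart but uncalled (log2 fold change 0.32, adjusted p = 0.267). The paralog median was 0.041, but it lay between 0.09 and 0.191 when any 1 library was left out, the latter without DMSO replicate 3. With DESeq2 it was 0.03 over these 20 genes and 0.19 over the 30 genes with any read.

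Genes listed for the erythroid lineage, among them targets of GATA1, TAL1 or KLF1 and signalling genes such as *JAK2*, moved in both directions. Of 41 listed, 33 were tested, 5 were called higher and 1 lower, and their median was -0.036, with 15 above 0 and 18 below. Over all tested genes 3.34% were called higher and 0.922% lower, and the list was chosen with earlier results of these data known. Over these 33 genes the median stayed below 0 under every alternative, between -0.06 and -0.005. *HBZ*, embryonic zeta-globin, rose from 71.5 ± 5.64 to 159 ± 27.4 CPM (log2 fold change 1.15, adjusted p = 6.14e-05, edgeR). *HBG2*, fetal gamma-globin, rose from 94.3 ± 11.6 to 140 ± 29.3 CPM (log2 fold change 0.57). The counts of both globins are uncertain, since their exons overlap those of other globin genes on the same strand and *HBG2* is nearly identical to *HBG1*. *HBG1* was at 9.85, 13.2 and 10.6 CPM in DMSO and 4.74, 12.6 and 8.16 CPM in EZH2i, overlapping and uncalled, with a log2 fold change of -0.39 (95% interval -0.95 to 0.17), the opposite sign to *HBG2*. *BCL2L1*, an anti-apoptotic gene, rose by 0.64 on the log2 scale, *ALAS2*, the first enzyme of erythroid heme synthesis, by 0.50 and *KEL*, a blood group antigen, by 0.45. *JAK2*, the kinase of the erythropoietin receptor, fell from 56.6 ± 2.85 to 41.7 ± 1.95 CPM (log2 fold change -0.44, adjusted p = 0.0338). The most abundant uncalled targets were *GYPB*, glycophorin B, at a log2 fold change of -0.05 (95% interval -0.27 to 0.17), and *EPB41*, a membrane skeleton protein, at 0.13 (95% interval -0.08 to 0.34). *HBZ* was called in all 12 alternatives, and the other 5 calls were lost in 2 to 5 of them. Exons of *ALAS2*, *BCL2L1* and, among the genes called above, *RUNX1T1* overlap genes on the opposite strand, and those of *BACH1* overlap genes on both strands, so without a known strand setting these counts are uncertain too. The 6 calls fell to 1 without DMSO replicate 1, to 1 without DMSO replicate 2 and to 2 without DMSO replicate 3. They rose to 7 with a replicate block and to 8 without a filter. *HBA1* was called higher in both (edgeR, adjusted p = 0.0437 and 0.0161) and without EZH2i replicate 3 (0.0407). *PIM1* was called lower without a filter (log2 fold change -0.493, adjusted p = 0.000554, edgeR).

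Of 20 genes of progenitors and of neighbouring lineages, 11 were tested. *KIT*, the stem cell factor receptor and a known GATA2 target, rose from 16.3 ± 0.484 to 25.0 ± 4.83 CPM (log2 fold change 0.61, adjusted p = 0.0372, edgeR), a call made in 6 of 12 alternatives and lost with DESeq2 and without any 1 library other than EZH2i replicate 1. *HHEX*, a homeobox gene of progenitors, had a log2 fold change of -0.46 (95% interval -0.79 to -0.12, adjusted p = 0.117), and it was called lower without EZH2i replicate 3 (-0.61, adjusted p = 0.0456), where *KIT* was not called, and without a filter (-0.48, adjusted p = 0.00287). *IKZF1*, which encodes Ikaros, differed by -0.10 on the log2 scale (adjusted p = 0.701). The median of the 11 was 0.065. Over these same 11 genes it lay between 0.037 (DESeq2) and 0.162 (without DMSO replicate 3) in the fits that kept them all, among them limma-voom (0.149) and the fits without DMSO replicate 1 (0.152) or EZH2i replicate 2 (0.131). It was -0.01 over the 8 genes left when at least 10 counts were asked of every library, and -0.017 over the 15 genes tested without a filter.

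**Figure D4:**
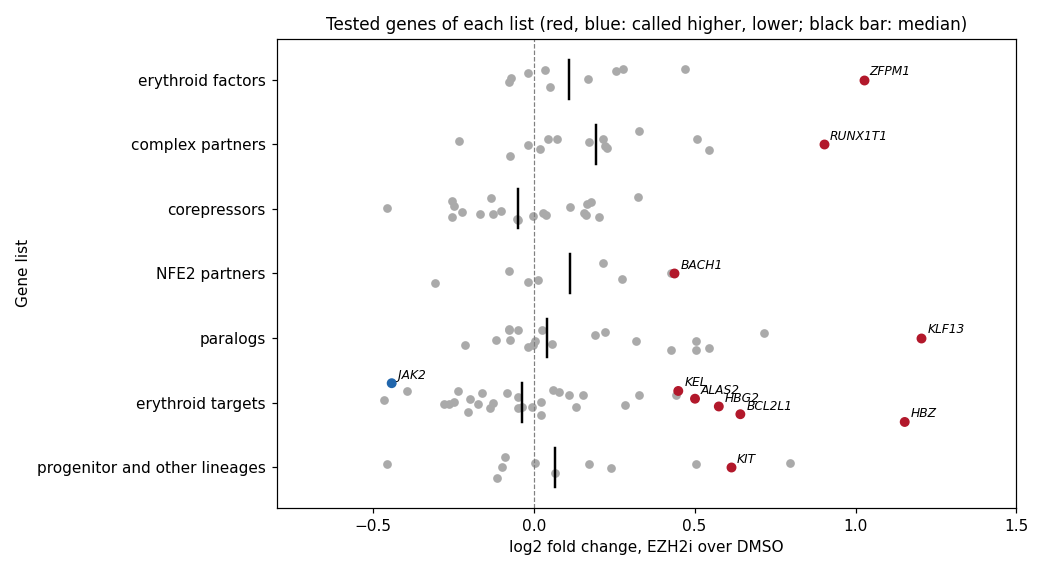
The log2 fold change, EZH2i over DMSO, of every tested gene of the 10 factors and of the 6 lists, with genes called higher in red, lower in blue and uncalled in grey, and a bar at each median. Medians lie between -0.048 and 0.193, several of them moving when 1 library is left out, and most genes called in any list are higher in EZH2i, with *JAK2* the one called lower.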

How the data were processed

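Three-prime mRNA libraries (QuantSeq FWD) of 3 DMSO and 3 EZH2i cultures were analysed. The authors aligned reads to hg38 and deposited raw counts per Ensembl gene, unpooled. The submitters' processing notes list STAR 2.6.0c and HTSeq 0.11.2. A deposited table of the authors' own comparison (fold changes, p-values) was not used. Genes held 67.0 to 67.9% of the listed reads in 5 libraries and 63.6% in EZH2i replicate 3, and the 5 summary rows, which name no gene, were left out. Symbols and positions came from GENCODE 44 (60401 of 60671 identifiers matched).

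The test of the counts was edgeR 4.0.16's quasi-likelihood test under R 4.3.3 (scaling by TMM, filterByExpr with a minimum count of 10, glmQLFit, glmQLFTest, two-sided, Benjamini-Hochberg over 12364 genes, threshold 0.05), without a replicate term. The standard error is the log2 fold change divided by the square root of F. With 3 libraries against 3, an exact permutation test cannot go below 0.1. Precision is limited by counting error in low genes, and replicate pairs differed by more than sampling noise (chi-square per degree of freedom 4.25 to 11.5). DESeq2 1.42.0, limma-voom (limma 3.58.1), another scaling, other filters and thresholds, a replicate block and leaving out each library were alternatives. The scripts were tested on simulated data.

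All 10 factors are named. For each list, every called gene and the 2 most abundant uncalled genes are named, and for *GATA1* and each called factor the 3 most alike genes. *ZFPM2*, *HBG1*, *BACH2*, *CBFA2T3*, *CBFA2T2*, *HBA1*, *PIM1* and the marker and neighbour genes were named beside these after their values were seen. The factors and lists were chosen with earlier results of these data known.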

Additional observations from a re-analysis of the deposited data

How the results depend on the processing

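*ZFPM1* was the one factor called, and called higher, under every alternative, with a log2 fold change from 0.875 (adjusted p = 0.0337, without DMSO replicate 2) to 1.138. Leaving out 1 library at a time moved the factors' median from 0.108 to between 0.070 and 0.157, and changed the sign of 3 uncalled factors, whose log2 fold changes ranged from -0.110 to 0.048 (*GATA2*), from -0.003 to 0.102 (*TAL1*) and from -0.073 to 0.108 (*MYB*). Over all genes, 527 were called, against 928 without a filter, 148 at an adjusted p under 0.01 and 209 to 536 with 1 library left out, and without DMSO replicates 1, 2 and 3 the counts were 213, 209 and 240. The cause was not tested. DESeq2 called 439. Deviations of same-numbered libraries showed little correlation (-0.0511, -0.0175 and -0.017). These values do not settle whether the cultures were paired by replicate number. With a replicate block 599 genes were called, *ZFPM1* again the one factor among them. Depth limits *ZFPM1*, *LDB1* and *LMO2* most, each with at most 138 reads per library.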
